A study of Homo sapiens with 16 samples.

Results

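The 6 genes TMPRSS2, EWSR1, ERG, FLI1, ETV1 and ETV4 take part in the ETS fusions of prostate cancer and Ewing sarcoma, and they are described here by the TOP2A cleavage cluster regions that lay in them. A CCR, as such a region is called, is DNA recovered with covalently trapped DNA topoisomerase II alpha, the enzyme that cuts both strands of one duplex to pass another through. Members were the regions whose centre fell in the RefSeq gene body plus 2 kb on each side (hg38), in any of 5 deposited lists. They numbered 465 of 1469949 regions on chromosomes 1 to 22, X and Y, and all 6 genes were among the 18973 protein-coding genes measured. All libraries came from K562, an established leukaemia cell line with the BCR-ABL1 fusion of chronic myeloid leukaemia. Exposure lasted 1 h for etoposide (25 µM), genistein (50 µM) and mitoxantrone (2 µM). It lasted 4 h for p-benzoquinone (8 µM), and 1 or 4 h for the vehicle DMSO. All treated and vehicle cells had 0.05% DMSO, and which DMSO library had which time is not given in the labels. TOP2A was immunocaptured from sonicated lysates. Pre-amplified libraries numbered 3 for etoposide, 2 for genistein, 1 for mitoxantrone, 2 for p-benzoquinone and 3 for DMSO. Libraries of a treatment were pooled by the authors into 1 list. A small share of regions carried more than 1 deposited score, 2.42% in DMSO, 1.6% in p-benzoquinone and 0.996% in etoposide. These scores were not used as replicates, and no p-value between treatments is given.

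ETS factors are transcription factors that share a DNA-binding domain recognising a GGAA core. In prostate cancer the androgen-driven promoter of TMPRSS2, a serine protease gene of the prostate epithelium, is joined to ERG, ETV1 or ETV4. In Ewing sarcoma the RNA-binding protein gene EWSR1 is joined to FLI1 or, less often, to ERG, ETV1 or ETV4. Both kinds of fusion need a double-strand break in each partner, and topoisomerase II is one of the enzymes studied as a source of such breaks. K562 is a blood cell line and not a prostate or sarcoma model.

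The RefSeq promoter table (GRCh38.p14) gave 11 start sites for 3 of the genes, ERG, ETV1 and EWSR1. CCRs reached the 250 bases upstream of a start site in 2 of these genes, and 1 window of each is shown because it holds the bases recovered with TOP2A. They are written 5′ to 3′ on the minus strand, with the bases inside a CCR in capitals.
ETV1, chr7:13991426-13991675: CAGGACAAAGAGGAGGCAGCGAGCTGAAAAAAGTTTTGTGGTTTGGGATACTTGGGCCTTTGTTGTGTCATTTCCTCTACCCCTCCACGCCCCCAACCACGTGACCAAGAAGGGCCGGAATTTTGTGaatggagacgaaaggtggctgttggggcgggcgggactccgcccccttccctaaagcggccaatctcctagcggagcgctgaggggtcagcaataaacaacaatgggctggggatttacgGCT
ERG, chr21:38498505-38498754: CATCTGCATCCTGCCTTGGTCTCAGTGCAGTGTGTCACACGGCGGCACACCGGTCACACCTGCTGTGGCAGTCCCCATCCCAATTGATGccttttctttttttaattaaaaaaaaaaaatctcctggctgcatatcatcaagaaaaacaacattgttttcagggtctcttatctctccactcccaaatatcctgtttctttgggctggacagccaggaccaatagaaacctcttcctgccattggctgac

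In the ETV1 window 127 bases belonged to a p-benzoquinone CCR (13991549 to 13991891, value 8.21) and 3 to a genistein CCR (13991243 to 13991428, value 10.76). That genistein CCR covered 179 of the 250 bases before the next start of ETV1, at 13991249. In the ERG window 89 bases belonged to a genistein CCR (38498666 to 38498831, value 18.65), upstream of an internal start of the gene. The ETV1 window was 56.0% G and C with 12 CG dinucleotides, and the ERG window 46.4% with 3, beside medians of 58.0% and 11 over all 35116 entries of the table. No etoposide, mitoxantrone or DMSO CCR overlapped the start windows, which run from 250 bases before to 50 after each of the 11 starts. Around the single EWSR1 start, at 29268268, the nearest CCR of each list lay 1428 bp away for etoposide, 2127 bp for genistein, 4861 bp for mitoxantrone, 5976 bp for p-benzoquinone and 3957 bp for DMSO.

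The first question was how many CCRs each gene carried. The 6 genes as a group held more CCRs per kb than the list mean in every list but mitoxantrone. The etoposide list had 70 CCRs in them, or 1.65 times its mean over the callable genome (95% Poisson interval 1.29 to 2.09). Genistein had 138, at 1.43 times (1.20 to 1.69), mitoxantrone 45, at 0.955 times (0.697 to 1.28), p-benzoquinone 118, at 1.41 times (1.17 to 1.69), and DMSO 94, at 1.31 times (1.06 to 1.60). These intervals, and all others below, cover counting error only. Reads amplified by PCR and carrying no molecular identifier do not each stand for 1 molecule. The low mitoxantrone value depended on ERG, the longest gene: without it the density was 1.23, on 31 CCRs. Without ERG the other densities were 2.07 for etoposide, 1.36 for genistein, 1.5 for p-benzoquinone and 1.17 for DMSO. By gene, 6 of 6 lay above the list mean for etoposide, against 44.5% of all measured genes. For genistein it was 6 of 6 against 43.2%, for mitoxantrone 2 of 6 against 42.8%, for p-benzoquinone 5 of 6 against 57.0%, and for DMSO 4 of 6 against 50.0%. Of the 30 intervals of single genes, 5 lay wholly above 1 and 0 below it.

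**Figure D1:**
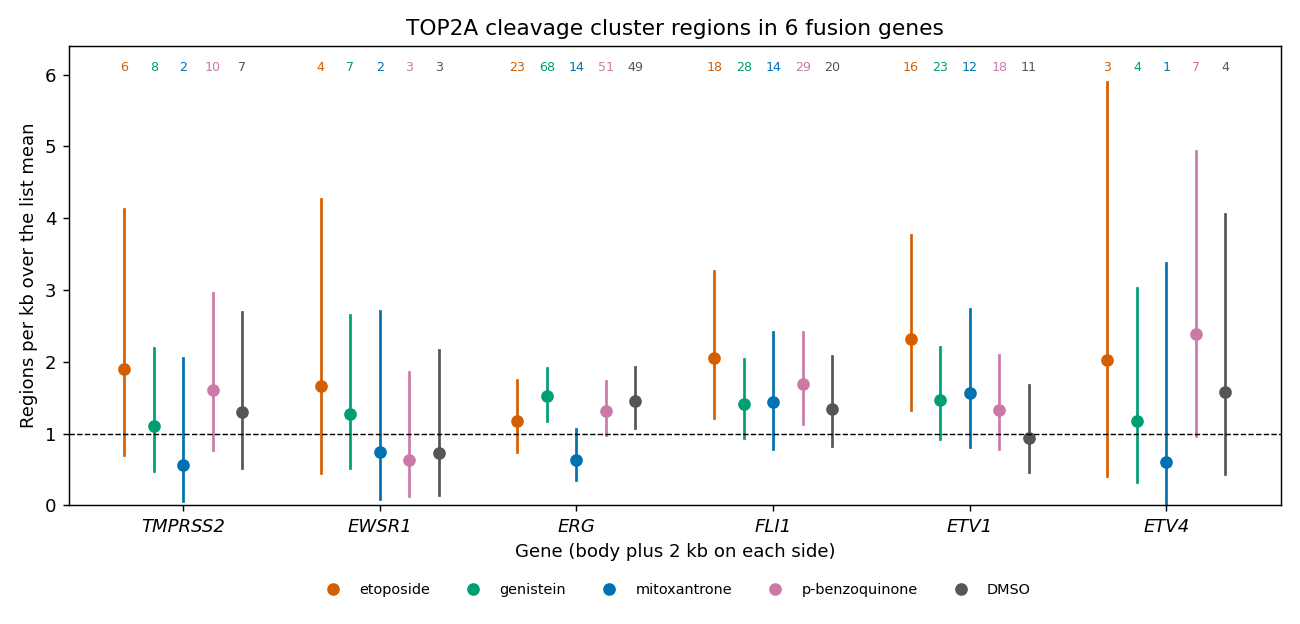
CCRs per kb in each gene window divided by the list mean per callable kb, with bars for exact Poisson 95% intervals and the number of CCRs printed above. The wide bars of TMPRSS2, EWSR1 and ETV4 rest on 1 to 10 CCRs each, while ERG under mitoxantrone (0.639) lies below the other ERG points (1.17 to 1.52).

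TMPRSS2, the usual 5′ partner in prostate cancer, lies on chromosome 21 from 41464305 to 41508158. It had 6 CCRs under etoposide, 8 under genistein, 2 under mitoxantrone, 10 under p-benzoquinone and 7 in DMSO. Scaled to list size these were 1.90, 1.11, 0.569, 1.61 and 1.3 times the list mean, and every interval included 1. All 33 lay in the gene body. Its highest values, in the scores the authors deposited, were 13.57 under etoposide, 34.80 under genistein, 13.94 under mitoxantrone, 20.04 under p-benzoquinone and 30.78 in DMSO. A score has no stated unit and its floor differs between lists (1.82 to 3.87), so scores are read within a list. One stretch of 486 bp, 41504134 to 41504619, held a CCR in 4 lists, with values of 11.20 under etoposide, 15.59 under genistein, 20.04 under p-benzoquinone and 4.83 in DMSO. It was the only stretch of the 6 genes found in 4 lists. It lies 40.1 kb from the end of TMPRSS2 with the lower coordinate. The 4 CCRs had only 41504428 to 41504436 in common.

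EWSR1 supplies the 5′ part of Ewing sarcoma fusions and lies on chromosome 22 from 29268268 to 29300521. Its counts were 4 under etoposide, 7 under genistein, 2 under mitoxantrone, 3 under p-benzoquinone and 3 in DMSO, at 1.67, 1.28, 0.751, 0.636 and 0.737 times the list means. Every one of these intervals included 1. The 3 DMSO CCRs sat close together, 20.7, 24.0 and 24.5 kb from the 5′ end, with values of 3.00, 16.23 and 5.74. Genistein had 4 CCRs between 18.6 and 24.2 kb, with values of 23.66, 7.44, 7.52 and 15.41. The CCR at 24.2 kb overlapped the DMSO CCR at 24.0 kb, and the 2 made up the only shared stretch of the gene (29292185 to 29292591). Etoposide, mitoxantrone and p-benzoquinone had 0 CCRs between 18.6 and 24.5 kb. That window was drawn around the DMSO and genistein CCRs themselves. The list means were 66.1 CCRs per Mb for etoposide, 73.4 for mitoxantrone and 130 for p-benzoquinone. At these means 0 is an ordinary count in so short a window, and no difference between treatments is read from it. Exon positions were not used here, so where the known breakpoint introns of EWSR1 lie was not compared. The highest mitoxantrone value of EWSR1 was 29.16 at 4.86 kb, at percentile 85.6 of its list. The highest etoposide value was 24.76 in the 3′ flank, at 32.8 kb and percentile 95.3 of its list.

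ERG, the ETS factor joined to TMPRSS2 and a regulator of endothelial and blood stem cells, is the longest of the 6, on chromosome 21 from 38367261 to 38661783. It held 23 CCRs under etoposide, 68 under genistein, 14 under mitoxantrone, 51 under p-benzoquinone and 49 in DMSO. The densities, in order, were 1.52 times the list mean for genistein (1.18 to 1.92), 1.46 for DMSO (1.08 to 1.93), 1.31 for p-benzoquinone (0.978 to 1.73), 1.17 for etoposide (0.739 to 1.75) and 0.639 for mitoxantrone (0.349 to 1.07). Mitoxantrone was thus the low list. Values ran from 2.05 to 39.08 under etoposide (median 7.46), 4.06 to 113.22 under genistein (14.2), 4.21 to 37.93 under mitoxantrone (12.1), 1.92 to 28.75 under p-benzoquinone (5.55) and 1.84 to 59.57 in DMSO (7.09). The strongest CCR of the gene in genistein, 113.22 at 38390430 to 38390998, ranked 368th in its list and overlapped no other list.

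FLI1, the main partner of EWSR1 and a regulator of megakaryocytes and blood vessels, lies on chromosome 11 from 128685132 to 128813267. It had 18 CCRs under etoposide, 28 under genistein, 14 under mitoxantrone, 29 under p-benzoquinone and 20 in DMSO. In order the densities were 2.06 for etoposide (1.22 to 3.26), 1.69 for p-benzoquinone (1.13 to 2.42), 1.44 for mitoxantrone (0.789 to 2.42), 1.41 for genistein (0.937 to 2.04) and 1.35 for DMSO (0.824 to 2.08). Neighbours in this order did not differ beyond counting error. The highest value in any of the 6 genes by rank within its list was a DMSO CCR of FLI1, 95.45 at 128734219 to 128734392, which ranked 110th of 310038. Its other highest values were 26.48 under etoposide, 43.04 under genistein, 25.28 under mitoxantrone and 14.48 under p-benzoquinone.

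ETV1 and ETV4 belong to the PEA3 group of ETS factors. ETV1, on chromosome 7 with its 5′ end at 13991425, had 16 CCRs under etoposide, 23 under genistein, 12 under mitoxantrone, 18 under p-benzoquinone and 11 in DMSO. Its densities were 2.32 for etoposide (1.33 to 3.77), 1.57 for mitoxantrone (0.810 to 2.74), 1.47 for genistein (0.931 to 2.20), 1.33 for p-benzoquinone (0.787 to 2.1) and 0.941 for DMSO (0.470 to 1.68). DMSO was therefore the low list in ETV1. Its highest values within each list were 87.47 under genistein, 62.1 kb from the 5′ end, 19.32 under etoposide, 31.12 under mitoxantrone, 8.21 under p-benzoquinone and 12.17 in DMSO. ETV4, on chromosome 17 from 43527846 to 43546340, had 3 CCRs under etoposide, 4 under genistein, 1 under mitoxantrone, 7 under p-benzoquinone and 4 in DMSO. Every ETV4 interval included 1. At its lower-coordinate end p-benzoquinone had a CCR of 35.99 in the 2 kb flank, which ranked 677th in its list, and another of 27.02 at 0.449 kb into the gene. The CCR of 27.02 overlapped a genistein CCR of 44.41, and the CCR of 35.99 an etoposide CCR of 2.28.

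The second question was whether a poison changed these numbers relative to DMSO. Numbers were divided by the ratio of list sizes, at 0.589 in the etoposide list, 1.34 in the genistein list, 0.654 in the mitoxantrone list and 1.16 in the p-benzoquinone list. All 4 ratios share the same DMSO list and are not independent. For the 6 genes together the scaled ratio over DMSO was 1.26 under etoposide (95% binomial interval 0.914 to 1.74) and 1.10 under genistein (0.837 to 1.44). It was 0.732 under mitoxantrone (0.501 to 1.05) and 1.08 under p-benzoquinone (0.819 to 1.44). The ERG share of these sums was large: without ERG, etoposide stood at 1.77 (1.15 to 2.73), genistein at 1.16 (0.787 to 1.73), mitoxantrone at 1.05 (0.644 to 1.70) and p-benzoquinone at 1.28 (0.868 to 1.92).

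A gene was counted as higher or lower when its scaled ratio was past 1.5-fold and the 2 lists held at least 10 CCRs of it together. For etoposide 2 of 4 such genes were higher, FLI1 and ETV1, beside 15.3% of all genes, and 0 of 4 were lower, beside 20.7%. For genistein 2 of 5 were higher, EWSR1 and ETV1, beside 14.6%, and 0 of 5 lower, beside 21.9%. For mitoxantrone 1 of 3 was higher, ETV1, beside 18.1%, and 1 of 3 lower, ERG, beside 23.2%. For p-benzoquinone 1 of 5 was higher, ETV4, beside 22.6%, and 0 of 5 lower, beside 14.2%. With 3 CCRs in DMSO, EWSR1 entered these counts only through its 7 under genistein, where no call but higher was possible. ETV4, with 4 in DMSO, entered only through its 7 under p-benzoquinone, the list where its count was highest. With 3 to 5 genes behind each count, no more is read from these shares. Some of these calls were lost under other settings. FLI1 under etoposide was at 1.47 with 5 kb flanks and 1.42 with scores of at least 4. Scaled by the 1 Mb on each side, ETV1 was at 1.39 under genistein and 1.43 under mitoxantrone, and ETV4 at 1.24 under p-benzoquinone. ETV4 was at 1.29 in the gene body alone. Of the 24 intervals of single genes, 2 did not include 1: ETV1 under etoposide and ERG under mitoxantrone.

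**Figure D2:**
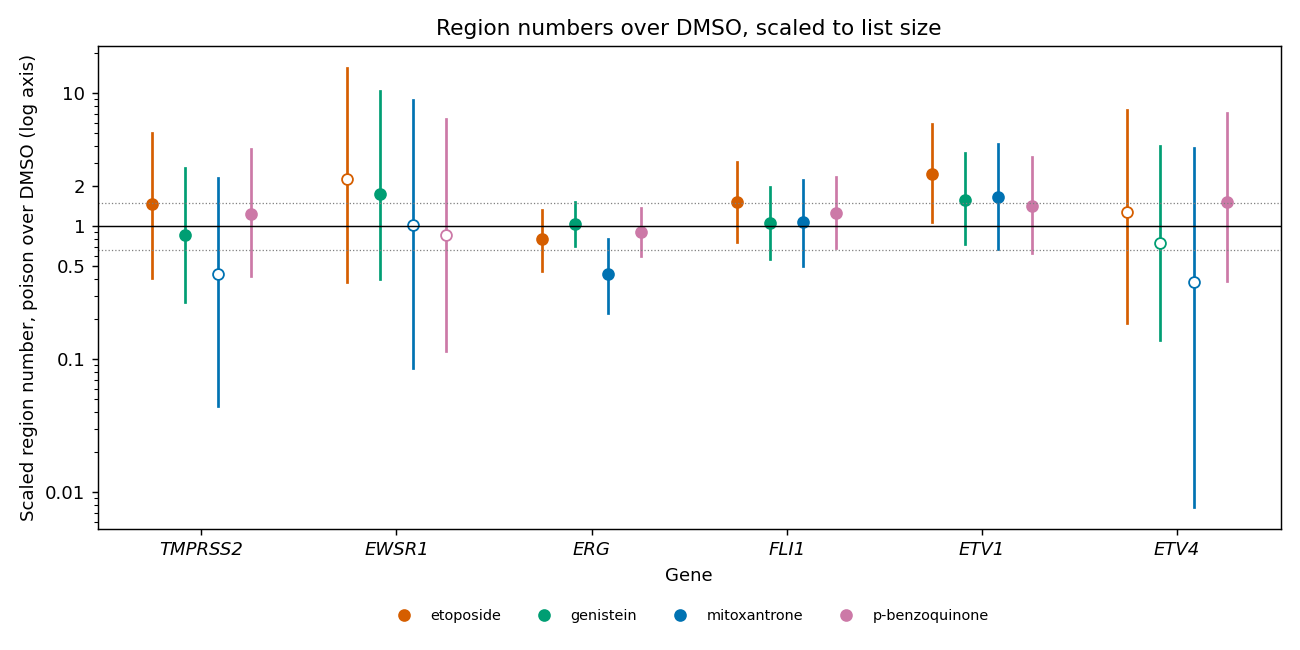
Scaled CCR number of each poison over DMSO for the 6 genes on a log axis, with exact binomial 95% intervals. Dotted lines mark 1.5-fold, and open points have under 10 CCRs in the 2 lists. ETV1 under etoposide (2.47) and ERG under mitoxantrone (0.437) are the points whose bars do not cross 1.

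ERG under mitoxantrone had 14 CCRs against 49 in DMSO, a scaled ratio of 0.437 (0.223 to 0.804). Among the 6491 genes with at least 10 CCRs in these 2 lists, the minimum used for the calls, 495 had a lower ratio. Among the 1047 genes with at least 50 CCRs in these 2 lists, 7 had a lower ratio, and 10.0% of the 1047 were at least 1.5-fold lower. The minimum of 50 was chosen for genes with totals like that of ERG. ERG passed it mainly through its 49 in DMSO, so no more is read from the 7. Set against the other poisons, the scaled ERG number under mitoxantrone was 0.486 times that under p-benzoquinone (0.248 to 0.892), where exposure was longer. The genistein number was 2.37 times that of mitoxantrone (1.32 to 4.57), and the etoposide number 1.83 times (0.900 to 3.84), whose interval includes 1. The doses of the poisons differ, so these are values side by side. Libraries differ as well. In each list at least 94.2% of the scores under 15 were whole multiples of 1 to 3 steps, within a rounding tolerance. The steps were fitted to these same scores, and their number per list was set by hand. A high share was thus partly fixed in advance, and the share that random scores would reach is not given. Steps were grouped, after the data were seen, as fine (under 0.29) or coarse. For mitoxantrone 1 step was looked for, and it was coarse (0.324), while DMSO had a coarse step and a fine one (0.231). Between scores under 15 on a coarse step the ERG ratio was 0.522 (0.190 to 1.33), on 8 components under mitoxantrone and 14 in DMSO, and its interval includes 1. The lowest deposited log2 value of treated over input in the mitoxantrone list was 4.00. In ERG 0 of 14 CCRs had an input signal of 0, against 22.5% of the whole mitoxantrone list. In FLI1 it was 5 of 14, and the part of input in the low ERG number was not tested.

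ETV1 had 16 CCRs under etoposide and 11 in DMSO, a scaled ratio of 2.47 (1.08 to 5.89). Of 6300 genes with at least 10 CCRs in these lists, 6151 had a lower ratio. The other ETV1 ratios over the same 11 DMSO CCRs were 1.56 under genistein (0.731 to 3.55) and 1.67 under mitoxantrone (0.673 to 4.17), with 1.41 under p-benzoquinone (0.632 to 3.31). Every interval between 2 poisons in ETV1 and FLI1 included 1. Within the coarse class the etoposide ratio was 1.85 (0.655 to 5.63), on 11 components against 7. In the fine class etoposide had 0 components and DMSO 4, which allows a ratio of up to 5.99. Within the coarse class the ETV1 ratio was 1.14 for genistein (0.445 to 3.29) and 1.18 for mitoxantrone (0.389 to 3.71), both under 1.5-fold. FLI1 under etoposide, at 1.53 (0.762 to 3.04), was 1.77 in the coarse class (0.561 to 6.03) and 0.879 in the fine class (0.0924 to 4.24). EWSR1 under genistein stood at 1.74 (0.398 to 10.4) and ETV4 under p-benzoquinone at 1.51 (0.384 to 7.04), both on few CCRs.

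The genes were next set against the 1 Mb on each side of their windows, which compares each gene with its own stretch of chromosome. Of 30 such ratios 2 had an interval wholly above 1 and 0 wholly below it, which differed with 500 kb on each side. ETV1 under etoposide was at 2.33 times its surroundings (1.29 to 3.92), against 0.960 in DMSO (0.472 to 1.75). ERG under genistein was at 1.47 times (1.12 to 1.92), against 1.24 in DMSO (0.894 to 1.69). ERG was at 0.906 under etoposide (0.559 to 1.41), 0.625 under mitoxantrone (0.334 to 1.08) and 0.773 under p-benzoquinone (0.567 to 1.03). With 500 kb on each side, ERG was at 0.558 under mitoxantrone (0.293 to 0.990) and 0.727 under p-benzoquinone (0.526 to 0.988), both intervals below 1, against 1.07 in DMSO (0.756 to 1.48). Under genistein it was then at 1.35, with a lower bound that rounds to 1. ETV1 under etoposide was at 2.26 (1.22 to 3.94). The DNA around ERG was itself dense under p-benzoquinone, at 1.70 times the list mean against 1.18 in DMSO. Around TMPRSS2 the values were 1.72 under p-benzoquinone and 1.44 in DMSO.

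ERG and TMPRSS2 lie on the same arm of chromosome 21, and many of their fusions delete the DNA between them. This segment, 38663784 to 41462304, is 2.80 Mb long and holds 16 measured protein-coding genes. It carried 232 CCRs under etoposide, 432 under genistein, 216 under mitoxantrone, 542 under p-benzoquinone and 410 in DMSO. The etoposide number was 1.25 times its list mean (1.10 to 1.43), the genistein number 1.03 times (0.933 to 1.13) and the mitoxantrone number 1.05 times (0.916 to 1.20). The p-benzoquinone number was 1.49 times (1.37 to 1.62) and the DMSO number 1.31 times (1.18 to 1.44). The whole of chromosome 21 stood between 0.983 and 1.12 in the 5 lists.

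Position along the genes was described next. Within ERG the RefSeq starts mark off segments from the first start, at 38660667, to the 3′ end. The upstream segment spans 75.7 kb, the middle one 86.4 kb and the downstream one 131 kb. The short part of the body before the first start was left out. In the upstream segment genistein had 26 CCRs, 2.28 times its list mean (1.49 to 3.35), and p-benzoquinone 16, at 1.63 (0.929 to 2.64), against 14 in DMSO, at 1.65 (0.901 to 2.76). Etoposide and mitoxantrone had 3 CCRs each there, at 0.600 (0.124 to 1.75) and 0.540 (0.111 to 1.58). The downstream segment held 12 CCRs under etoposide, 23 under genistein, 6 under mitoxantrone, 20 under p-benzoquinone and 21 in DMSO. Their densities were 1.38 for etoposide, 1.17 for genistein, 0.623 for mitoxantrone, 1.17 for p-benzoquinone and 1.43 for DMSO. Mitoxantrone was below its list mean in every segment, with 0.788 in the middle one, although each of these 3 intervals included 1.

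**Figure D3:**
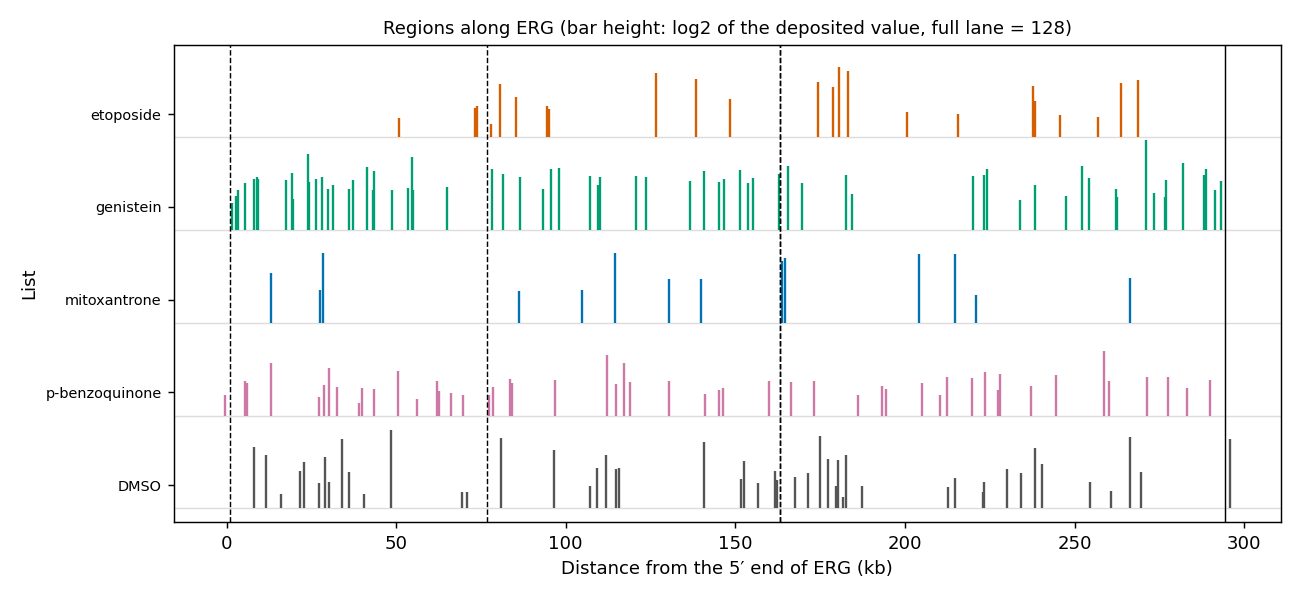
Each bar is a CCR placed by its distance in kb from the 5′ end of ERG, 1 lane per list, with bar height on a log2 scale of the deposited score. Dashed lines mark RefSeq starts (the 2 downstream starts coincide) and the solid line the 3′ end. Genistein has 26 CCRs between the first and the second dashed line, and etoposide and mitoxantrone have 3 each. The genistein list is larger: over the list means these are 2.28 for genistein, 0.600 for etoposide and 0.540 for mitoxantrone.

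Each gene body was cut into 4 equal parts. Over the 5 lists together those of ERG, from its 5′ end, held 61, 49, 46 and 47 CCRs. Those of ETV1 held 21, 20, 10 and 23, and those of EWSR1 4, 4, 5 and 3. From the lower coordinate TMPRSS2 had 7, 10, 4 and 12, FLI1 32, 24, 30 and 21, and ETV4 6, 4, 3 and 4. In ETV1 the second of the 4 held 7 of 10 DMSO CCRs and 3 of 15 under etoposide. It held 5 of 21 under genistein, 2 of 12 under mitoxantrone and 3 of 16 under p-benzoquinone. The first and last parts of ETV1 held 4 and 5 of the etoposide CCRs, and 1 each in DMSO. These parts were picked after the counts were seen, and no difference between treatments is read from numbers this small.

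**Figure D4:**
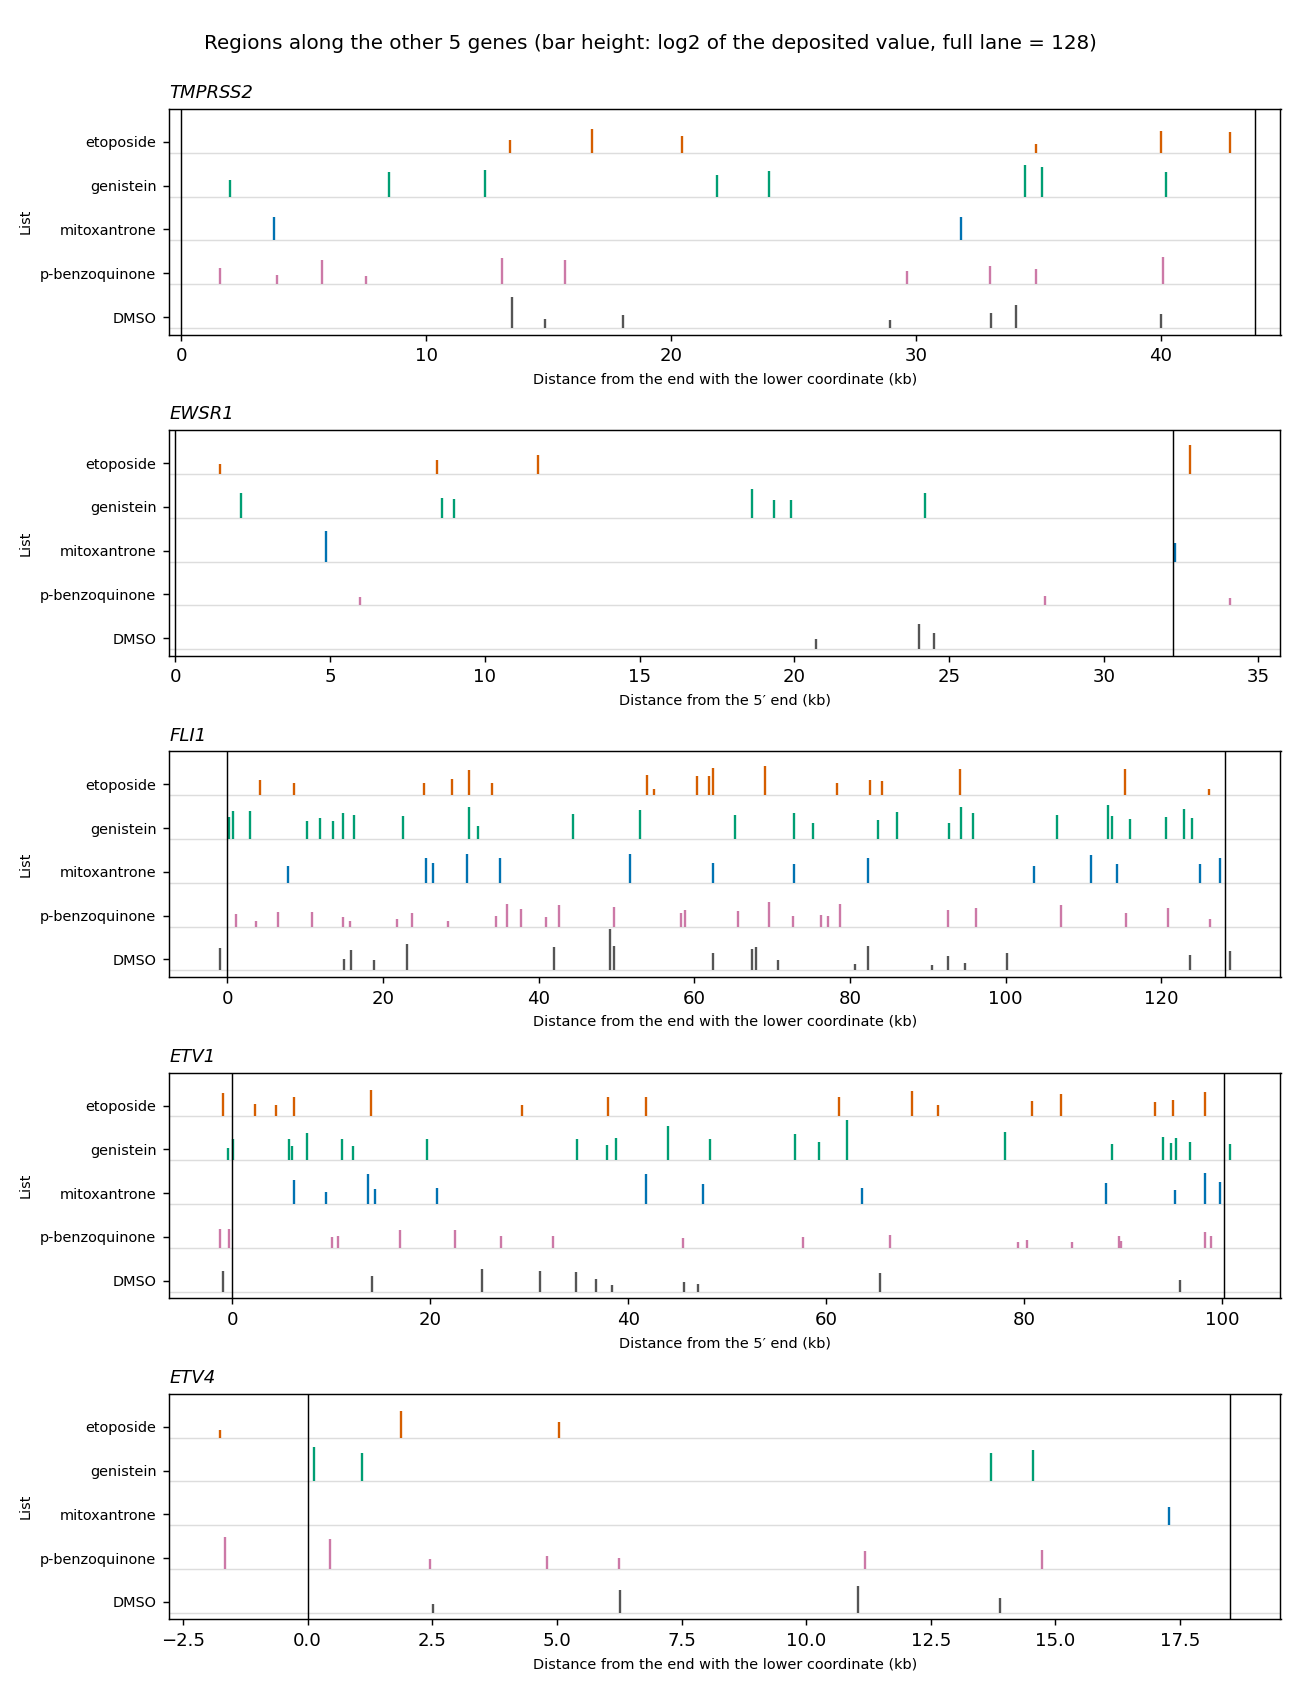
CCRs along TMPRSS2, EWSR1, FLI1, ETV1 and ETV4, 1 lane per list, by distance in kb from the 5′ end where the promoter table gives the strand and otherwise from the lower coordinate. Solid lines mark the gene ends. In EWSR1 the 3 DMSO CCRs and 4 of 7 genistein CCRs lie between 18.6 and 24.5 kb, where the other lists have 0. The window was drawn around these CCRs and is too short for a count of 0 to mark a difference.

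The third question was whether the treatments hit the same places in these genes. Most CCRs of the 6 genes overlapped no other list, as over the whole lists. Of the etoposide CCRs 16 of 70 (22.9%) overlapped another list by at least 1 bp, beside 27.4% of the whole list. The counts were 24 of 138 for genistein (17.4%, beside 20.2%), 12 of 45 for mitoxantrone (26.7%, beside 24.5%), 29 of 118 for p-benzoquinone (24.6%, beside 21.1%) and 30 of 94 for DMSO (31.9%, beside 24.4%). CCRs chained by overlap formed 51 stretches, 21 of them in ERG, 11 in FLI1, 8 in ETV1, 6 in ETV4, 4 in TMPRSS2 and 1 in EWSR1. In such a chain, 2 CCRs of a stretch need not overlap each other. Of the 8 stretches with 3 or more lists 4 lay in FLI1, 2 in ETV1, 1 in TMPRSS2 and 1 in ERG. A share over all genes is not given for such stretches, so no difference between the genes is read from these counts.

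The FLI1 stretch at 128747379 to 128747692 held CCRs of 20.38 under etoposide, 9.08 under mitoxantrone and 6.93 in DMSO. At 128757799 to 128758091 the values were 17.22 under genistein, 7.78 under mitoxantrone and 3.14 under p-benzoquinone. The other FLI1 stretches, 128699943 to 128700224 and 128777533 to 128777924, had genistein, p-benzoquinone and DMSO CCRs with values between 2.96 and 18.30. In the latter the p-benzoquinone CCR ended at 128777814 and the genistein CCR began at 128777815, so each overlapped only the DMSO CCR. In ERG the stretch at 38423341 to 38423632 carried 6.78 under etoposide, 10.76 under genistein and 23.68 in DMSO. Both ETV1 stretches, in a gene with only 11 DMSO CCRs, were of poisons alone. At 13893074 to 13893245 they were 14.25 under etoposide, 31.12 under mitoxantrone and 5.55 under p-benzoquinone, and at 13985015 to 13985454 they were 8.80 under etoposide, 4.65 under genistein and 14.58 under mitoxantrone.

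High values were counted against the percentiles of each list. At or above the 90th percentile of their list lay 10 of 70 CCRs for etoposide (14.3%, beside 10.1% of the list), 12 of 138 for genistein (8.70%, beside 10.0%) and 4 of 45 for mitoxantrone (8.89%, beside 10.0%). For p-benzoquinone it was 13 of 118 (11%, beside 10.1%) and for DMSO 12 of 94 (12.8%, beside 10.1%). At the 95th percentile the shares were 7.14% for etoposide (5 CCRs, beside 5.03% of the list), 5.07% for genistein (7, beside 5.01%) and 0 of 45 for mitoxantrone (beside 5.02%). They were 5.08% for p-benzoquinone (6, beside 5.05%) and 9.57% for DMSO (9, beside 5.07%). Of those at the 90th percentile, all 4 of the mitoxantrone CCRs and 10 of the 12 in DMSO were in ERG. TMPRSS2 had 4 of the 13 under p-benzoquinone.

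Among all 28 ETS factor genes, members included, densities above the list mean were found in 16 for etoposide (beside 44.5% of all genes), 16 for genistein (43.2%), 13 for mitoxantrone (42.8%), 20 for p-benzoquinone (57.0%) and 18 for DMSO (50.0%). The median density was 1.25 for etoposide, 1.14 for genistein, 0.978 for mitoxantrone, 1.39 for p-benzoquinone and 1.36 for DMSO, beside medians over all genes of 0.910, 0.919, 0.882, 1.12 and 1.00 in the same lists. Under mitoxantrone 7 of the 14 ETS genes with at least 10 CCRs in the 2 lists were at least 1.5-fold lower than in DMSO, beside 23.2% of all genes. They were EHF, ELF2, ELF4, ERG, ETV6, GABPA and SPI1, while ELF1, ETV1 and ETV5 were higher. Many of these calls rest on few CCRs: under mitoxantrone EHF had 1, ELF2 had 2, and ELF4, GABPA and SPI1 had 3 each. In DMSO EHF and ELF4 had 10 each, ELF2 had 12, and GABPA and SPI1 had 7 each. These genes thus reached the minimum of 10 mainly through DMSO, where they were high, and no more is read from the 7 of 14. For genes that are not members no interval is given here. The ETS median density under mitoxantrone (0.978) was not below that of all genes (0.882), and in DMSO it was above it (1.36 beside 1.00). The median scaled ratio was 0.695 over the 14 genes, beside 0.965 over all genes. Under etoposide 3 of 12 ETS genes were higher (beside 15.3%) and 0 lower (beside 20.7%), and under genistein 2 of 13 were higher (14.6%) and 3 lower (21.9%). Under p-benzoquinone 4 of 15 were higher (22.6%) and 2 lower (14.2%). The mitoxantrone list rests on 1 library. Of non-member ETS genes with at least 10 CCRs in the 5 lists, the 3 with the highest mean density were ELF3, an epithelial factor, SPI1, which encodes the myeloid and B-cell regulator PU.1, and SPDEF, a factor of prostate and goblet cells. SPI1 had 3 CCRs under etoposide, 1 under genistein, 3 under mitoxantrone, 9 under p-benzoquinone and 7 in DMSO. SPDEF had 2, 1, 1 and 11 under the same poisons and 5 in DMSO, and ELF3 had 1, 3, 1 and 4 and 2 in DMSO.

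By the 4 log2 ratios over DMSO, TMC7 was the gene at the smallest distance from ERG out of 6065 candidates (Euclidean distance 0.191). TMC7 had 4 CCRs under etoposide, 11 under genistein, 2 under mitoxantrone, 9 under p-benzoquinone and 8 in DMSO. Counts this small have wide counting error and all 4 ratios share the DMSO list, so a short distance need not mean a like response. Nearest to FLI1 were EGFLAM (0.108) and CPA6 (0.145), and nearest to ETV1 were TMCO5A (0.23) and ABCA9 (0.23).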

How the data were processed

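The authors sequenced TOP2A-bound DNA and deposited 1 union list of regions per treatment. The submitters' processing notes list hg38, Bowtie2 2.1.0 and SAMtools 0.1.19. How regions were called is not given in the sources used here. Each region's deposited score has no stated unit, and the highest score was used where a region held several. The deposited mitoxantrone list also carries an input score, a log2 value of treated over input, and a p-value where the input is 0, which was not used. Depth per library is unknown. Sample labels tie the lists to pre-amplified libraries, except mitoxantrone, tied by treatment.

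Regions on chromosomes 1 to 22, X and Y were kept, and overlapping entries were joined (10562 of 425777 in genistein). The callable genome was 2763 Mb of 100 kb bins with a region, and genes needed 50% of the window callable, as 18973 of 20037 protein-coding genes had. All genes of the lists but 1 were measured. Ratios have exact intervals and no test. A pseudocount of 0.5 served only the distances between genes, for those with at least 30 regions. Step classes, and the number of steps looked for in each list, were set after seeing the data. Of values under 15, those that matched 1 step within 0.006 plus 0.16% of the value were assigned, 29.9% of DMSO and 35.4% of etoposide components were not, and both lists of a ratio had this filter. The members and lists were chosen with earlier results of these data known. Named genes were all members, the 3 densest others of each list with at least 10 regions, and the 2 genes nearest to ERG, FLI1 and ETV1. One of these is not reported here. Alternatives were the window, the lowest score, overlap, joining, covered bases, surroundings and step class. The software was Python 3.11.15 with scipy 1.17.1, pandas 2.3.3, numpy 2.4.6 and matplotlib 3.10.9. On simulated data of 281 genes in 1 comparison, genes planted at 2-fold gave a median ratio of 2.09 and others 0.966.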

Additional observations from a re-analysis of the deposited data

How the results depend on the processing

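For the 6 genes together, densities and ratios over DMSO stayed within their counting intervals in 70 comparisons with another setting and left them in 2. Both of these left out ERG, the longest gene: the ratio over DMSO was then 1.77 for etoposide and 1.05 for mitoxantrone. Of the other values, for single genes, scores and overlaps, 257 stayed within, 6 left them, and 5 that were past 1.5-fold came out on the other side of 1. Counting every size of ratio, single genes over DMSO crossed 1 in 9 of 30 comparisons within a step class and in 10 of 168 under the other settings, and genes over their surroundings in 6 of 60. Within a step class, an alternative chosen after seeing the data, those past 1.5-fold were TMPRSS2 under mitoxantrone (1.83) and, in the fine class of etoposide, EWSR1 (0.0), FLI1 (0.879) and ETV1 (0.0). These rest on 0 to 9 components, and the cause was not tested. ETV1 under p-benzoquinone was at 0.835 of its surroundings with scores of at least 4 only. ERG under mitoxantrone ran from 0.366 to 0.522 over the 9 settings. Leaving overlapping entries unjoined could move only the genistein values, because the other lists had 0 entries to join. Its comparisons for the other lists are part of the counts above, had a fixed outcome and say nothing about stability. No paired analysis was possible because each treatment is 1 pooled list. TMPRSS2, EWSR1 and ETV4 hold at most 10 CCRs in a list, which limits what can be seen there.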

Other observations

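Of 15 genes listed as partners in fusions of solid tumours, TMPRSS2 and EWSR1 included, 14 were measured. Densities above the list mean were found in 7 of them for etoposide (beside 44.5% of all genes), genistein (43.2%), mitoxantrone (42.8%) and p-benzoquinone (57.0%) alike, and in 10 for DMSO (50.0%). Of non-members with at least 10 CCRs in the 5 lists, the 3 densest were SLC45A3, a prostate gene joined to ERG in some tumours, the androgen-regulated NDRG1, and WT1, the Wilms tumour transcription factor gene joined to EWSR1 in desmoplastic tumours. WT1 had 2 CCRs under etoposide, 7 under genistein, 7 under mitoxantrone, 11 under p-benzoquinone and 12 in DMSO. NDRG1 had 7, 9, 9 and 15 under the same poisons and 6 in DMSO, and SLC45A3 had 2, 5, 3 and 8 and 3 in DMSO.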
